A study of Homo sapiens with 6 samples.

Results

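IL-20 subfamily cytokines are small secreted proteins of the IL-10 family that act mainly on epithelial cells. IL-19, IL-20 and IL-24 bind a receptor made of the chains IL20RA and IL20RB, and IL-20 and IL-24 also bind a receptor made of IL22RA1 and IL20RB. Both receptors signal through JAK kinases to STAT3, and in skin they are known for the hyperplasia and antimicrobial response of keratinocytes in psoriasis. The genes described here are the ligands IL20, IL24 and IL19 and the receptor chains IL20RA, IL20RB and IL22RA1, which are 6 of the 58174 genes in the table. They were chosen by their FPKM in the OV-BRCA1 samples against the NC samples, so their differences between the groups are given as a description. No p-value is printed for them, and the number that passed a threshold is given once, beside the share of all genes, with nothing read from it.

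SiHa is an established cell line from a squamous cell carcinoma of the human cervix. The cells received the plasmid GV230-BRCA1 (OV-BRCA1 group, 3 samples) or the empty vector GV230 (NC group, 3 samples) with Lipofectamine and were harvested 48 h later. The plasmid was introduced transiently and both groups had plasmid DNA and transfection reagent, and no untransfected cells are among the samples. The study calls the 3 samples of a group biological replicates, and no batch is named.

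The measure is FPKM, the fragments of a transcript scaled to its length and to the mapped fragments of the library, summed over the transcripts of a gene, so levels of different genes can be compared. The depth was estimated at 14.21 to 16.74 M fragments in the OV-BRCA1 samples and 16.25 to 20.25 M in the NC samples, because the files used here hold no counts. BRCA1, the gene carried by the plasmid, was measured at 35.7, 40.8 and 34.9 FPKM in the OV-BRCA1 samples and at 20.1, 14.9 and 21.7 FPKM in the NC samples, given here and below in the order of samples 1, 2 and 3. Of 8 epithelial markers, KRT7, KRT8 and KRT18 were abundant (KRT7 1544 to 1732 FPKM), whereas the squamous markers KRT5 and TP63 stayed at or below 0.202 and 0.369 FPKM. The general epithelial markers KRT19 (0.206 to 0.917 FPKM) and CDH1 (0.170 to 0.896 FPKM) were also low. KRT18 rose by 0.39 on the log2 scale (limma adjusted p = 9.76e-04) and EPCAM rose from 2.59 ± 0.457 to 6.79 ± 0.860 FPKM (SD, n = 3; log2 fold change 1.12, limma adjusted p = 0.00142), and TP63 was 0.192 to 0.369 FPKM in the OV-BRCA1 samples, against 0.0131 to 0.0370 FPKM in the NC samples. KRT8 passed as higher (log2 fold change 0.20, limma adjusted p = 0.0282), but not without OV-BRCA1 replicate 1 or 2 or NC replicate 1 or 2, with the replicate block, without a filter or with the nuclear protein-coding scaling (limma adjusted p from 0.0554 to 0.0850). Of 10 markers of blood, endothelial and stromal cells, PTPRC and MS4A1 were listed at 0 in every sample. The 10 summed to 11.3 to 13.2 FPKM per OV-BRCA1 sample, against 25.5 to 27.98 FPKM per NC sample. CD14 and COL1A1, both lower in the OV-BRCA1 samples, made up most of the sum. The part of these marker differences in the values below was not tested.

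The start regions of the members that stood higher in the OV-BRCA1 group are shown because these members differed together. RefSeq (GRCh38.p14) gave 9 windows for the 6 genes, and the 250 bases before the start are printed for the 3 windows that hold no GENCODE exon. Capitals mark matches, on either strand, to the AP-1 motif TGANTCA, the STAT motif TTCNNNGAA, the TATA box TATAAA, a loose NF-kB motif or the interferon response element. The IL24 window is chr1:206897193-206897442 (+ strand), the IL22RA1 window is chr1:24143141-24143390 (- strand) and the IL20 window is chr1:206863315-206863564 (+ strand). The IL20 window belongs to a RefSeq start upstream of IL20-202, the transcript that held most of the IL20 FPKM and that begins at position 206865354 in GENCODE.
IL24: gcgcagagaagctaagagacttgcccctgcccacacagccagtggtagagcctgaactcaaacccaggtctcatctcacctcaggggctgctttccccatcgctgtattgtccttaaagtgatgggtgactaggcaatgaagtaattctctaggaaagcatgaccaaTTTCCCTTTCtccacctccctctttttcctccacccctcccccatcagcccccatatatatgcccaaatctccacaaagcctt
IL22RA1: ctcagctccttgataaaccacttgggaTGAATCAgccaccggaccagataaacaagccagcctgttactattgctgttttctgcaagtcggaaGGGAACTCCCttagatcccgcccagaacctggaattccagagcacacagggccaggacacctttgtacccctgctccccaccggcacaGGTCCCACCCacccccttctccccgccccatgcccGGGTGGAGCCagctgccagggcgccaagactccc
IL20: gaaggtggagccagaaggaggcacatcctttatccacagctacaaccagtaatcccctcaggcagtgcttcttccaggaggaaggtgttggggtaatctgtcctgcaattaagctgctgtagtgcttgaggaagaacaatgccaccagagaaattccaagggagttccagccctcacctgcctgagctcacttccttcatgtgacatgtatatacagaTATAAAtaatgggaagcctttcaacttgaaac

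The IL24 window held 1 match to the interferon response element, which 3.02% of all 35116 windows hold. The IL22RA1 window held 1 AP-1 match (6.57% of all windows) and 3 matches to the loose NF-kB motif (54.4% of all windows). The IL20 window held 1 TATA box (10.7% of all windows) and no match to the other motifs. None of the 3 held the STAT motif, which 6.57% of all windows hold. Windows not printed also held matches, 1 TATA box for IL20RA and 1 NF-kB match for IL20RB. Those of IL19 held 1 AP-1, 1 NF-kB and 1 STAT match. All these matches describe letters and say nothing of binding.

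Among the ligands, IL24 differed most between the groups. IL24 (ENSG00000162892, GRCh38 chromosome 1, 206897443 to 206904139, + strand) encodes a secreted cytokine first described as a melanoma differentiation gene. Its level was 3.69, 4.65 and 3.90 FPKM in OV-BRCA1 samples 1, 2 and 3 against 0.421, 0.524 and 0.667 FPKM in NC samples 1, 2 and 3. The groups did not overlap, and the OV-BRCA1 values were the higher ones. The mean was 4.08 ± 0.501 FPKM against 0.537 ± 0.123 FPKM (SD, n = 3 each), a ratio of 7.59. On the scale of log2(FPKM + 1), which understates the change of low genes, the log2 fold change was 1.72 with a standard error of 0.11. An estimated 12.4 to 20.5 fragments lie behind each NC value and 80.0 to 108 behind each OV-BRCA1 value.

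IL20 (ENSG00000162891, chromosome 1, 206865354 to 206869223, + strand), which encodes the cytokine that gives the subfamily its name, was the most abundant ligand in every sample. Its level was 4.92, 5.15 and 6.16 FPKM in the OV-BRCA1 samples and 1.92, 2.85 and 2.21 FPKM in the NC samples, again without overlap. The means were 5.41 ± 0.661 and 2.32 ± 0.476 FPKM (SD, n = 3 each), a ratio of 2.33 and a log2 fold change of 0.95 with a standard error of 0.13. Both ligands lay closer together in the OV-BRCA1 group. The ratio of IL20 to IL24 was 3.31 to 5.43 in the NC samples and 1.11 to 1.58 in the OV-BRCA1 samples. Together both ligands summed to 8.61 to 10.1 FPKM per OV-BRCA1 sample, against 2.34 to 3.37 FPKM per NC sample.

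IL19 (ENSG00000142224, chromosome 1, 206798870 to 206842981, + strand) encodes the ligand that uses the IL20RA and IL20RB receptor alone. It stood at 0.199 FPKM in OV-BRCA1 sample 1, an estimated 3.57 fragments, and was listed at 0 in the other 5 samples. Most of that value was on a transcript with a retained intron (0.155 FPKM). A level of IL19 mRNA was therefore hardly detectable at this depth, and the gene did not pass the filter on low values.

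**Figure D1:**
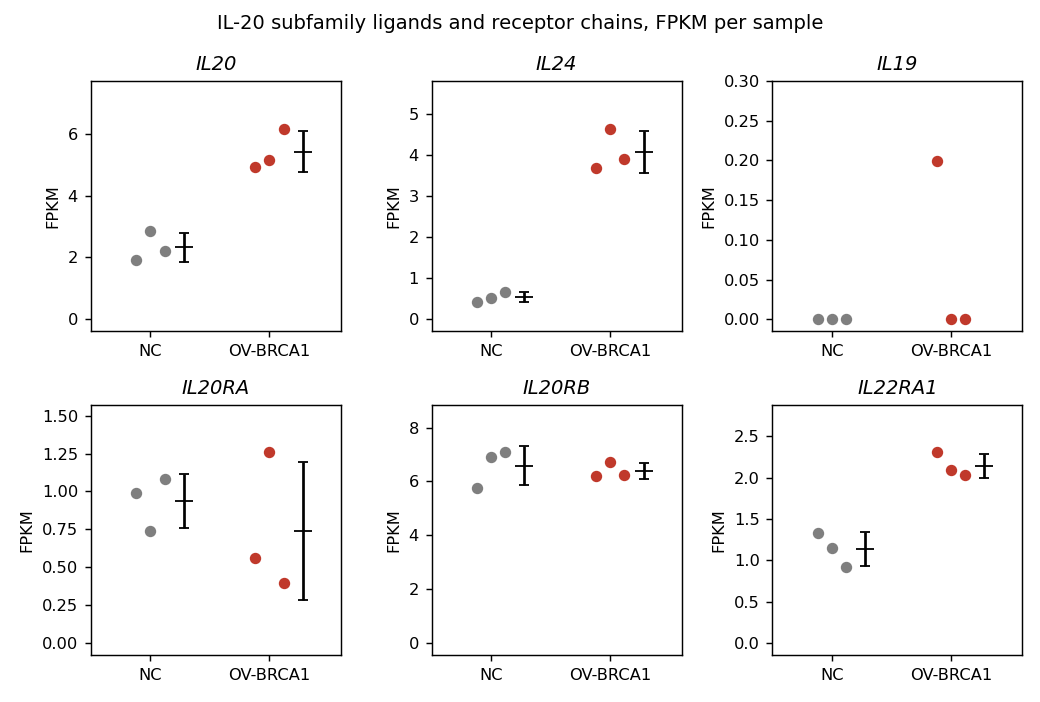
FPKM of each member (y axis, linear, own scale per panel) in the 3 NC samples (grey) and the 3 OV-BRCA1 samples (red), with the mean and SD as a black bar where no sample is at 0. IL20, IL24 and IL22RA1 do not overlap between the groups, IL20RA and IL20RB do, and IL19 is above 0 in 1 sample.

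Among the receptor chains, IL22RA1 was higher in the OV-BRCA1 group and the other two overlapped between the groups. IL22RA1 (ENSG00000142677, chromosome 1, 24119771 to 24143121, - strand) encodes the chain that IL-20 and IL-24 share with IL-22. Its level was 2.31, 2.09 and 2.03 FPKM in the OV-BRCA1 samples and 1.33, 1.15 and 0.925 FPKM in the NC samples. All OV-BRCA1 values exceeded all NC values, with means of 2.14 ± 0.143 and 1.14 ± 0.204 FPKM (SD, n = 3 each). The ratio was 1.89 and the log2 fold change 0.56 with a standard error of 0.10.

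IL20RB (ENSG00000174564, chromosome 3, 136946230 to 137011085, + strand) encodes the chain that both receptors need, and it was the most abundant member in every sample. Its level was 6.22, 6.74 and 6.22 FPKM in the OV-BRCA1 samples, against 5.76, 6.92 and 7.08 FPKM in the NC samples. The groups overlapped, and the log2 fold change was -0.03 with a standard error of 0.09. IL20RB overlaps NCK1 on the same strand (mean 10.7 FPKM for OV-BRCA1 and 12.95 FPKM for NC) and the antisense gene IL20RB-AS1 (0.227 and 0.325 FPKM). The strand setting of the counting is not given, so reads of the antisense gene cannot be told apart from those of IL20RB.

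IL20RA (ENSG00000016402, chromosome 6, 136999971 to 137045180, - strand), the chain that completes the receptor for all 3 ligands, was the least abundant receptor chain of the OV-BRCA1 samples. Its level was 0.560, 1.26 and 0.397 FPKM in the OV-BRCA1 samples and 0.990, 0.738 and 1.08 FPKM in the NC samples. OV-BRCA1 sample 2 lay above all NC samples and the other OV-BRCA1 samples lay below them. The log2 fold change was -0.18 with a standard error of 0.19, and the values rest on an estimated 19.7 to 50.1 fragments. The ratio of IL20RB to IL20RA was 5.35 to 15.7 in the OV-BRCA1 samples and 5.82 to 9.38 in the NC samples. The ratio of IL20RB to IL22RA1 was 2.70 to 3.22 in the OV-BRCA1 samples and 4.32 to 7.66 in the NC samples.

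In each OV-BRCA1 sample the order of FPKM from high to low was IL20RB, IL20, IL24, IL22RA1, IL20RA and IL19. The lowest IL20RB value (6.22 FPKM) and the highest IL20 value (6.16 FPKM) lay closer together than the SD of either gene. In the NC samples the order was IL20RB, IL20, then IL22RA1 and IL20RA with overlapping values, IL24 and IL19. In bulk samples, more cells with a transcript and more transcript per cell cannot be told apart.

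In total 5 of 6 members passed the filter on low values (0.5 FPKM or more in 3 or more samples). IL24 passed the criterion for DEGs, an adjusted p-value below 0.05 with an absolute log2 fold change above 1, which 3.99% of the 16321 tested genes passed, 2.89% upward and 1.10% downward. The adjusted p-value alone was passed upward by 3 members (IL20, IL24 and IL22RA1) and downward by 0, against 35.3% of all tested genes, 16.4% upward and 18.9% downward. Groups without overlap were seen in 3 members, all higher in the OV-BRCA1 samples, against 50.8% of all tested genes, 23.4% higher and 27.4% lower. IL24 reached the filter through the OV-BRCA1 group, since 2 NC samples were at 0.5 FPKM or more. Since the members were chosen with this contrast known, nothing is read from these counts.

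The plot of log2 fold changes sets the members beside the rest of the class II cytokine receptor family, to which IL20RA, IL20RB and IL22RA1 belong together with the receptors for IL-10 and the interferons and the coagulation receptor F3. Of the 9 other genes of the family, 7 were tested, 3 rose, 0 fell and 4 did not pass the adjusted p-value. Their median log2 fold change was 0.21, beside -0.04 over all tested genes. F3, the tissue factor that starts coagulation, rose from 98.0 ± 2.18 to 182 ± 3.67 FPKM (SD, n = 3; log2 fold change 0.89, limma adjusted p = 3.62e-05). IFNLR1, the chain specific for lambda interferons, rose by 0.42 on the log2 scale (limma adjusted p = 0.0212) and IFNGR1, a chain of the interferon gamma receptor, by 0.21 (limma adjusted p = 0.0283). F3 alone of the 9 passed without OV-BRCA1 replicate 3, NC replicate 2 or NC replicate 3, and with the replicate number as a block. IFNLR1 and IFNGR1 also did not pass without OV-BRCA1 replicate 1, nor IFNGR1 without NC replicate 1, nor IFNLR1 without a filter (limma adjusted p = 0.0621).

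**Figure D2:**
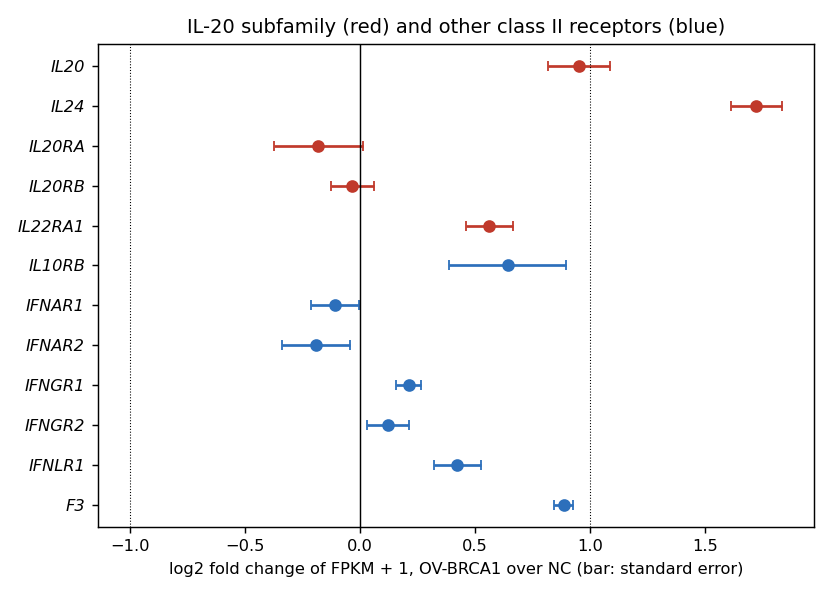
Log2 fold change of FPKM + 1 between the OV-BRCA1 and NC groups (x axis; point, estimate; bar, standard error; dotted lines, the fold change of the DEG criterion) for the 5 tested members (red) and 7 other class II receptor genes (blue). IL24 at 1.72 lies beyond the dotted line, IL20 at 0.95 and F3 at 0.89 lie just inside it.

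IL10RB completes the receptors that IL22RA1 forms for IL-22 and IL20RA forms for IL-26, and it was chosen for mention after its values were seen. Its level was 11.1, 21.6 and 21.9 FPKM in the OV-BRCA1 samples, against 11.5, 11.6 and 9.48 FPKM in the NC samples, so the groups overlapped through OV-BRCA1 sample 1 (log2 fold change 0.64, limma adjusted p = 0.0975). Without OV-BRCA1 replicate 1 IL10RB passed (log2 fold change 0.94, limma adjusted p = 0.00352). IL22RA2, the soluble decoy receptor for IL-22, was at most 0.0222 FPKM. Of 10 other ligands of the IL-10 and interferon families, IL10, IL22, IL26, IFNK and IFNG were listed at 0 in every sample. IFNL1, a lambda interferon whose receptor contains IFNLR1, rose (limma adjusted p = 2.55e-04). It had 3.76, 2.68 and 2.29 FPKM in the OV-BRCA1 samples and values listed at 0 in the NC samples. It reached the filter on low values through the OV-BRCA1 samples only, so its higher level there was partly fixed by the filter. IFNE, an interferon of epithelia, showed a log2 fold change of 0.06 (limma adjusted p = 0.687).

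The transcripts behind the sums differed in how steady they were, as the bars per transcript show. IL20-202, a coding transcript of 1553 bases, held 88.8% of the IL20 FPKM for OV-BRCA1 and 86.8% for NC. Its level was 4.40, 4.54 and 5.48 FPKM in the OV-BRCA1 samples, against 1.54, 2.498 and 2.01 FPKM in the NC samples. The second coding transcript, IL20-201, was also higher in every OV-BRCA1 sample (0.519 to 0.686 FPKM) than in any NC sample (0.191 to 0.378 FPKM). The difference of IL20 was thus present in both of its detected transcripts.

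IL24 was divided over more transcripts. In the OV-BRCA1 group, the coding IL24-201 held 51.3% of the FPKM (1.83, 2.25 and 2.19 FPKM), IL24-206, a processed transcript without an annotated coding region, 25.7% (0.800, 1.43 and 0.919 FPKM) and the coding IL24-202 19.5% (0.945, 0.872 and 0.567 FPKM). Coding transcripts made up 78.3%, 69.3% and 76.45% of the IL24 FPKM in OV-BRCA1 samples 1, 2 and 3. In the NC group the few fragments fell on a different transcript in each sample, on IL24-202 in NC sample 1, on IL24-203, a target of nonsense-mediated decay, in NC sample 2 and on IL24-201 and IL24-204 in NC sample 3. IL24-206 was listed at 0 in all NC samples. At this depth the transcripts of IL24 cannot be compared between the groups one by one.

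IL22RA1 has a single annotated transcript. For IL20RB, the sum was steadier than its parts. The coding IL20RB-201 had 2.53, 3.32 and 5.75 FPKM in the OV-BRCA1 samples, against 3.87, 4.47 and 3.07 FPKM in the NC samples. IL20RB-202, a target of nonsense-mediated decay, had 3.08, 3.11 and 0.312 FPKM in the former, against 1.88, 1.83 and 3.82 FPKM in the latter. OV-BRCA1 sample 3 stood apart, with 92.4% of the IL20RB FPKM on the coding transcript against 40.6% and 49.3% in the other OV-BRCA1 samples and 43.4% to 67.2% in the NC samples. Of the 8 transcripts of IL20RA, the long coding transcripts IL20RA-201 and IL20RA-203 held 43.2% and 32.1% of the OV-BRCA1 FPKM, against 34.1% and 30.8% of the NC FPKM, and each was listed at 0 in at least 1 sample.

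**Figure D3:**
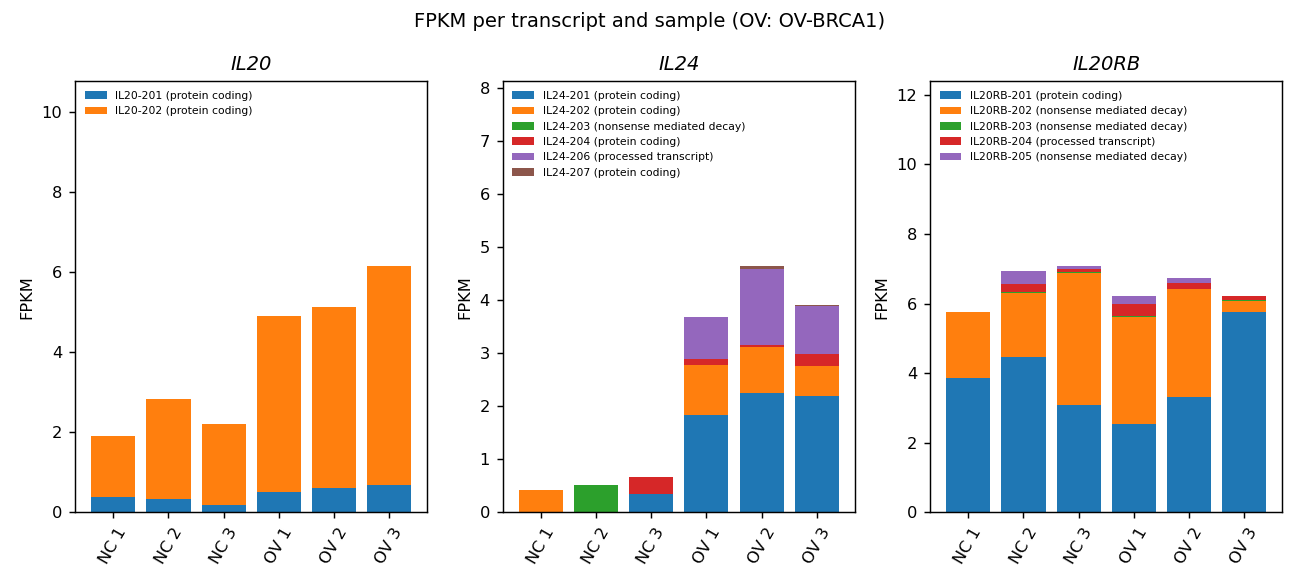
FPKM per sample (y axis) stacked by transcript for IL20, IL24 and IL20RB in NC samples 1 to 3 and OV-BRCA1 samples 1 to 3 (OV). IL20-202 makes up most of every IL20 bar, IL24 falls on different transcripts in each NC sample, and the IL20RB bars are of similar height with a coding share between 40.6% and 92.4%.

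The ligand genes lie side by side on chromosome 1, in the order IL10, IL19, IL20 and IL24. IL10 was listed at 0 in every sample and IL19 in 5 of 6 samples, whereas IL20 and IL24, 28220 bases apart, were both higher in the OV-BRCA1 group. Within 250000 bases of the members' genes there were 28 other protein-coding genes, of which 17 were tested, 5 rose, 3 fell and 9 did not pass, with a median log2 fold change of 0.08. FCMR, which encodes an Fc receptor for IgM and ends 247 bases beyond IL24 on the opposite strand, rose from 4.39 ± 0.252 to 9.17 ± 1.11 FPKM (SD, n = 3; log2 fold change 0.91, limma adjusted p = 0.00110). FCMR and IL24 run towards each other, and the strand setting of the counting is not given.

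**Figure D4:**
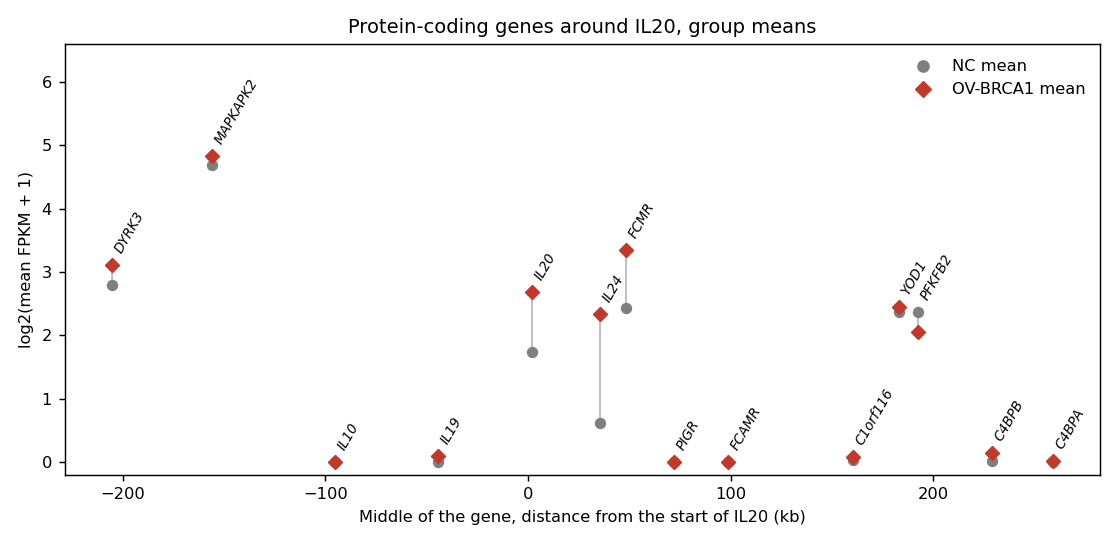
Mean expression, log2(FPKM + 1), of the protein-coding genes within 250000 bases of IL20 in the NC group (grey circles) and the OV-BRCA1 group (red diamonds) against the distance of the middle of the gene from the start of IL20 in kb. IL20, IL24 and FCMR show the widest gaps between the groups, while IL10, PIGR and FCAMR are at 0 in both.

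Beside the other members, IL22RA1 is neighboured by IFNLR1, 11036 bases away on the same strand and described above. SLC35G2, a solute carrier gene 90338 bases from IL20RB, rose by 0.75 on the log2 scale (limma adjusted p = 8.06e-04). EIF2D, a translation factor gene 186407 bases from IL19, fell by 0.39 on the log2 scale (limma adjusted p = 0.00593), and SRSF10, a splicing factor gene 138844 bases from IL22RA1, fell by 0.17 (limma adjusted p = 0.0402). SRSF10 did not pass with any 1 sample left out, with the median of ratios scaling, without a filter, with the replicate block or on its most abundant transcript (limma adjusted p from 0.0546 to 0.125). EIF2D did not pass on its most abundant transcript (log2 fold change -0.21, limma adjusted p = 0.237). The count of neighbours that passed was 3 to 5 in place of 8 when any 1 sample was left out, and 3 with the replicate number as a block.

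Of 14 kinases, STAT proteins and inhibitors through which the receptors signal, all were tested, 1 rose, 3 fell and 10 did not pass, with a median log2 fold change of -0.06. JAK1, the kinase that IL20RA and IL22RA1 engage, fell by 0.28 on the log2 scale (limma adjusted p = 0.00530), TYK2 by 0.58 (limma adjusted p = 0.0122) and STAT5B by 0.54 (limma adjusted p = 0.00146). On its most abundant transcript TYK2 had a lower log2 fold change, -1.07, with a standard error of 0.51 that left it short of the threshold (limma adjusted p = 0.211). STAT3, the main target of the receptors, had 37.9, 37.8 and 40.4 FPKM in the OV-BRCA1 samples, against 39.2, 38.4 and 44.5 FPKM in the NC samples (log2 fold change -0.07, limma adjusted p = 0.481). SOCS1, an inhibitor of JAK kinases, rose from 3.39 ± 0.281 to 6.77 ± 1.20 FPKM (SD, n = 3; log2 fold change 0.81, limma adjusted p = 0.00417). SOCS3, the inhibitor best known as a STAT3 target, showed a log2 fold change of 0.01 (limma adjusted p = 0.935) and was chosen for mention after its values were seen.

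Among 10 cytokines known to induce the subfamily in epithelia, 3 were tested and all 3 rose. Of all tested genes 16.4% passed the adjusted p-value upward. IL6 rose from 169 ± 13.4 to 567 ± 19.6 FPKM (SD, n = 3; log2 fold change 1.74, limma adjusted p = 1.57e-05), IL1A had a log2 fold change of 0.97 (limma adjusted p = 5.08e-04) and IL1B one of 0.96 (limma adjusted p = 0.00158). IL1A passed the filter on low values through the OV-BRCA1 samples only, as did IFNL1 above, so a higher level there was partly fixed by the filter. Without IL1A, 2 were tested and 2 rose. IL17A, OSM, IL36A, IL36B and IL36G were listed at 0 in every sample. Of 11 transcription factors and kinases linked to the ligand genes, 2 rose, 3 fell and 6 did not pass. FOSL1, an AP-1 subunit, rose by 2.14 on the log2 scale (limma adjusted p = 3.37e-04). The AP-1 subunit FOS fell by 2.13 (limma adjusted p = 3.88e-06), JUND by 0.64 (limma adjusted p = 3.98e-04) and JUNB by 0.28 (limma adjusted p = 0.00267).

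Of 15 genes that IL-20 subfamily cytokines and IL-22 are known to raise in keratinocytes, 10 were tested, 8 rose, 0 fell and 2 did not pass, with a median log2 fold change of 0.86. Of all tested genes 16.4% rose and 18.9% fell past the adjusted p-value, and their median was -0.04. The list was chosen with earlier results of these data known, and a response to the cytokines was not tested. KRT6A, SERPINB4 and MMP1 reached the filter on low values through the OV-BRCA1 samples, so a higher level there was partly fixed by the filter. Of the other 7 tested genes 5 rose, with a median of 0.88. MMP1 rose from 0.498 ± 0.0950 to 12.4 ± 0.808 FPKM and MMP3 from 0.903 ± 0.101 to 14.4 ± 1.13 FPKM (SD, n = 3), with log2 fold changes of 3.17 and 3.02 (limma adjusted p = 6.03e-06 and 6.83e-06). Both encode secreted matrix proteases that many stimuli induce. PI3, which encodes the protease inhibitor elafin, rose by 0.88 on the log2 scale (limma adjusted p = 7.36e-05) and HBEGF, an EGF receptor ligand, by 0.77 (limma adjusted p = 5.72e-04). The keratin gene KRT16 had 6.30, 5.41 and 6.105 FPKM in the OV-BRCA1 samples, against 6.32, 7.19 and 7.53 FPKM in the NC samples. All its OV-BRCA1 values lay below all NC values, but it did not pass (log2 fold change -0.21, limma adjusted p = 0.132). Among antimicrobial genes, S100A9 had 4.44, 4.26 and 1.73 FPKM in the OV-BRCA1 samples, against 1.64, 1.02 and 0.880 FPKM in the NC samples (log2 fold change 0.99, limma adjusted p = 0.0415). It did not pass with any 1 sample other than OV-BRCA1 replicate 3 left out, or without a filter (limma adjusted p from 0.0556 to 0.115). When every gene was taken by its most abundant transcript, S100A9 did not pass either (limma adjusted p = 0.08895). It has 1 transcript, so its log2 fold change there was the same. Its partner S100A8 was listed at 0 in the OV-BRCA1 samples and had 0.238, 0.119 and 0.0767 FPKM in the NC samples, below the filter on low values. LCN2 had means of 3.32 FPKM for NC and 3.35 FPKM for OV-BRCA1 (log2 fold change 0.01, limma adjusted p = 0.967), and S100A7, S100A7A, S100A12 and DEFB4A were listed at 0 in every sample. KRT16, S100A8, S100A9, LCN2 and the genes at 0 were chosen for mention after their values were seen. Of 8 differentiation genes that the cytokines are known to lower, 2 were tested, KRT10 fell by 0.96 on the log2 scale (limma adjusted p = 0.00898) and TGM1 did not pass (log2 fold change -0.03, limma adjusted p = 0.883). On its most abundant transcript KRT10 did not pass (log2 fold change -0.20, limma adjusted p = 0.383).

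**Figure D5:**
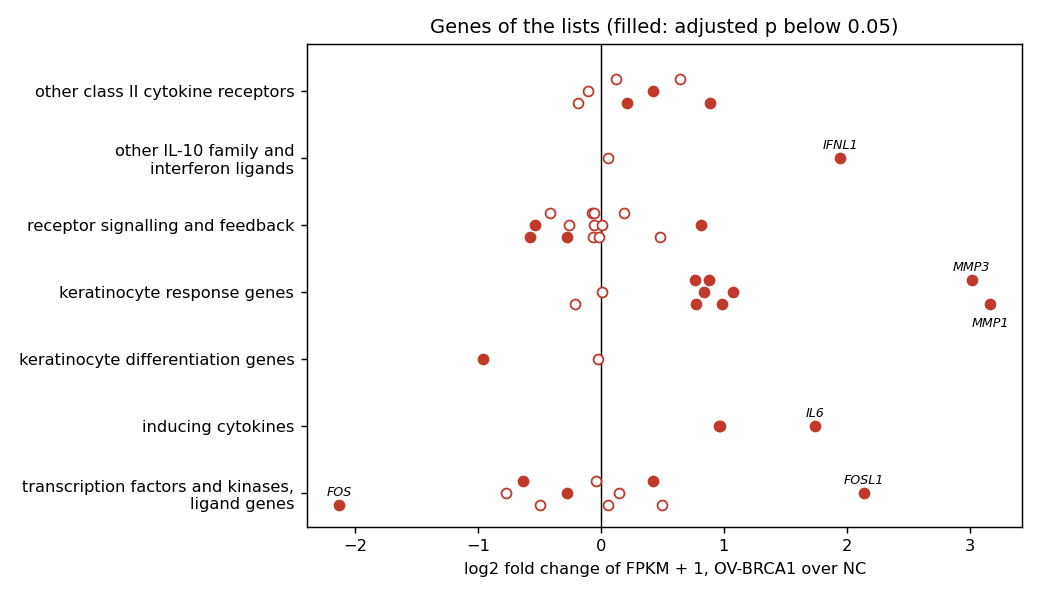
Log2 fold change of FPKM + 1 between the groups (x axis) for the tested genes of each list (rows; filled points, adjusted p below 0.05; open points, not passed). The 3 inducing cytokines and 8 of 10 keratinocyte response genes are filled and to the right of 0, while the signalling genes lie between -0.58 and 0.81. IL1A and IL1B overlap as 1 point. IL1A, IFNL1, KRT6A, SERPINB4 and MMP1 reached the filter on low values through the OV-BRCA1 samples. The lists were chosen with earlier results of these data known.

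By the distance between their 6 centred values of log2(FPKM + 1), the protein-coding genes most like IL24 were GRAMD1B, MDK and HERC5 (distances 0.150, 0.212 and 0.214). Those most like IL20 were HSD11B2, UGDH and FAM89A (0.205, 0.227 and 0.233), those most like IL20RB were CHD1L, WWP1 and NOL8 (0.0636, 0.0729 and 0.0743) and those most like IL20RA were CHKB-CPT1B, ATP6V1D and ZNF480 (0.166, 0.171 and 0.236). PWWP2B and LONRF3 (0.112 and 0.114) were among the 3 most like IL22RA1. The distance covers 6 samples in 2 groups, and for IL20, IL24 and IL22RA1 mostly reflects the difference between the groups.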

How the data were processed

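FPKM per transcript was calculated and deposited by the authors from reads filtered for adapters, undetermined bases and quality. The submitters' notes name FastQC, HISAT2 and hg38. The counter, annotation and use of strand are not given in the sources used here. The table held 199167 transcripts, and the 6 per-sample files held the same values. FPKM was summed per gene and named by GENCODE 29, which held 198868 transcripts, 98.7% of them at the same GRCh38 position.

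The groups were compared with limma (3.58.1, R 4.3.3; trend, not robust) on log2(FPKM + 1) for genes with 0.5 FPKM or more in 3 or more samples, with Benjamini-Hochberg adjustment over 16321 genes. Depth was estimated from the value of 1 fragment in 14216 genes with a single transcript. Only 31.7% to 36.5% of the low values lay within 0.1 of a whole fragment, so counts were not recovered. In simulated data, with independent normal noise at the median spread of genes of similar level, 180 of 200 changed genes among 16321 were recovered with 0 false calls. The changes were all set beyond the log2 fold change of 1 that a call needed besides the adjusted p-value. The simulation therefore does not cover calls by the adjusted p-value alone. Motifs were searched with Python 3.11.15.

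Members and lists were chosen with earlier results of these data known. Named genes are the members, up to 4 genes per list with the smallest adjusted p-values, up to 2 with the highest mean, family genes closest to members, BRCA1, and the 3 genes most like each member. IL10RB, SOCS3, KRT16, KRT19, CDH1 and genes given as absent were chosen after their values were seen. One name under the last rule is not reported here.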

Additional observations from a re-analysis of the deposited data

How the results depend on the processing

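The results were recomputed with 2 other scalings, a pseudocount of 0.1, no filter, a filter of FPKM of at least 1 in every sample, each sample left out, the replicate number as a block and the most abundant transcript in place of the sum. IL20, IL24 and IL22RA1 were higher in the OV-BRCA1 group under every alternative that gave a value. The split of all genes past the adjusted p-value moved with the scaling, from 2674 higher and 3090 lower to 2961 and 2777 (median of ratios) or 2372 and 3473 (nuclear protein-coding total). With a pseudocount of 0.1 the log2 fold changes were 1.20 for IL20, 2.725 for IL24 and 0.87 for IL22RA1, since a smaller pseudocount compresses low values less, and 1280 DEGs were called in place of 651. With the most abundant transcript, IL24 had 1.48, the adjusted p-value was passed by 3291 genes in place of 5764, and 0 differentiation genes passed in place of 1. IL20RA, IL22RA1 and IL24 could not be computed under the stricter filter, nor IL20RA under the most abundant transcript. That filter left 0 of the other IL-10 family and interferon ligands in place of 1, 2 keratinocyte response genes in place of 8 and 1 inducing cytokine in place of 3, because fewer of them were tested. Without a filter 2 of those other ligands passed.

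With 1 sample left out, the log2 fold changes ranged from 0.86 to 1.06 for IL20, 1.64 to 1.78 for IL24, 0.49 to 0.63 for IL22RA1, -0.39 to -0.04 for IL20RA and -0.12 to 0.01 for IL20RB. IL20 exceeded 1 without OV-BRCA1 replicate 1 (1.01), and it did so without NC replicate 2 (1.06). Some list genes that did not pass with all samples passed with 1 left out, IL10RB and RELA without OV-BRCA1 replicate 1, SOCS2 without OV-BRCA1 replicate 2 and STAT5A without NC replicate 2. STAT5A also passed with the nuclear protein-coding scaling, the pseudocount of 0.1 and the stricter filter, PIAS3 and RELA with that scaling, and the neighbours MAPKAPK2, MAP3K5 and STPG1 in 2 settings each. The other receptors that passed numbered 1 to 3 and the neighbours 3 to 5 in place of 8. Same-numbered samples did not deviate together over all genes (correlations of -0.0244, 0.0250 and 0.0136). A pairing that touches only some genes would not show in these correlations, and the labels name no pairing. With the replicate block 4595 genes passed the adjusted p-value, 646 were DEGs, and 1 other receptor and 3 neighbours passed; all other list counts stayed within 1.5 times. Genes with few estimated fragments, such as IL19 and IL24 in the NC group, are limited by depth.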
